A study of Rattus norvegicus with 48 samples.

Results

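The comparison described here is the effect of dietary salt on the left ventricle of Dahl salt-sensitive rats that had all received an antibody against marinobufagenin. Its members were chosen by group label: 6 arrays from rats on 8% NaCl and 6 from rats on 0.1% NaCl, 12 of the 48 arrays of the series, each from a separate animal. The rats were males of the inbred strain SS/JrHsd, placed on a diet with 0.1% or 8% NaCl at 6 weeks of age, 14 rats to a diet. In diet week 7, stated as 15 weeks of age, 7 rats of each diet received a single intraperitoneal dose of 50 µg/kg of the mouse monoclonal antibody 3E9, and the tissue is labelled as 16 weeks old. These ages and weeks do not add up, so the time on the diet is known only as the labels give it (8 weeks). Of the 7 rats in each antibody group, 6 were arrayed. Rats on the same diets given a control mouse IgG1 (clone 11711), and the kidneys of the same animals, are used only to show where this comparison differs. The sample titles write lateral ventricle and the series text left ventricle.

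Marinobufagenin is a bufadienolide steroid made in the body that binds the sodium pump (Na/K-ATPase) and lowers its activity, and its level rises with salt intake in salt-sensitive animals. Dahl salt-sensitive rats on a salt-rich diet become hypertensive, and their left ventricle thickens, returns to a fetal pattern of gene expression (natriuretic peptides, skeletal actin) and lays down collagen. Transforming growth factor beta, acting through its receptors and Smad proteins, is a main driver of such collagen deposition. The comparison asks how far the ventricles of rats on the 2 diets still differ when marinobufagenin has been bound by an antibody.

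The tissue carried markers of ventricular muscle. Probes for Myh6, Myh7, Tnnt2, Tnni3 and Myl2 exceeded background on every one of the 12 arrays. Background here means a deposited detection p-value of 0.05 or more. These genes encode myosin heavy and light chains and troponins of the cardiac sarcomere. From the same marker list, Actc1 was detected on 5 salt-loaded and 6 low-salt arrays. Probes for Ryr2 were detected on 0 to 3 salt-loaded and 0 to 6 low-salt arrays. Of 6 brain and choroid plexus markers, Gfap, Snap25, Slc17a7 and Aqp4 were detected on 0 of 12 arrays, while Ttr was detected on 3 salt-loaded and 6 low-salt arrays and Mbp on 3 and 1. The summed normalized level of these 6 was 206.87 to 721.05 on 8% and 214.91 to 249.48 on 0.1% NaCl. The kidney markers Umod, Aqp2 and Slc34a1 were detected on 0 of 12 arrays.

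The arrays of salt-loaded rats were dim. On 8% NaCl the lowest array detected 3859 of 22523 probes, the median lay between 4269 and 4350, and the brightest array, replicate 6, detected 5509. On 0.1% NaCl the counts ran from 7475 to 8356. The means were 4448 ± 575 and 7845 ± 286 probes (SD, n = 6 each), a difference of -3396.5 (exact two-sided permutation test, p = 0.00216, the smallest that 924 splits of 12 arrays allow, and the same after adjustment over 4 array measures). The log2 of the 95th percentile of intensity was 7.88 ± 0.37 on 8% and 10.40 ± 0.25 on 0.1% NaCl (SD, n = 6 each), a difference of -2.52 with the same p in the exact test. Over the 2712 probes detected on all 12 arrays, the median intensity above background was 108 ± 49.7 on 8% and 888 ± 160 on 0.1% NaCl (SD, n = 6 each), a ratio of 0.121. No array of one diet overlapped the other diet in any of these measures.

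**Figure D1:**
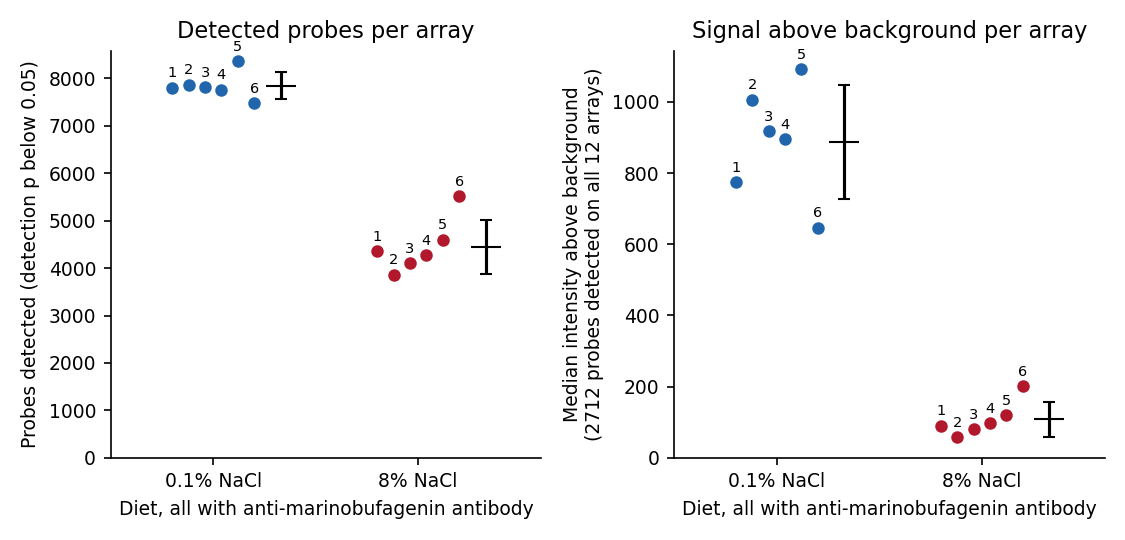
Detected probes (left) and median intensity above background over 2712 probes (right) for the 12 left ventricular arrays given anti-marinobufagenin antibody. Each point is 1 array with its replicate number, and black marks show the mean and SD (n = 6). All salt-loaded arrays lie below all low-salt arrays, and salt-loaded replicate 6 is the brightest of its group.

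Deposited intensity was lower across the array. The mean deposited intensity was higher on 8% than on 0.1% NaCl for 0 of 22523 probes, the largest ratio being 0.997, and all 6 salt-loaded arrays lay below all 6 low-salt arrays for 22426 probes (99.6%). These counts include 12328 probes undetected on all 12 arrays, and the mean background intensity itself was 105 on 8% and 159 on 0.1% NaCl. In the kidneys of the same 12 rats, 17838 probes had the higher mean intensity on 8% NaCl. An array records the share of labelled RNA bound by a probe, so fewer cells of a type, less RNA per cell and less labelled RNA on the array cannot be told apart. Chip, hybridisation day and RNA quality are unknown for these samples, so a difference in handling cannot be told apart from diet. Every rise or fall below is therefore relative: it says how a probe stood against the other probes of its array after normalization.

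After background correction and quantile normalization (neqc), 5977 of 8354 tested probes differed between the diets (71.5%, limma, Benjamini-Hochberg adjusted p below 0.05). Of these, 2270 were higher on 8% NaCl (27.2%) and 3707 lower (44.4%), and 1261 and 1953 of them differed more than 2-fold. The median change over all tested probes was -0.31 on the log2 scale, and all 2270 higher probes had the lower raw mean on 8% NaCl. The balance of the calls moved with the scaling. Median scaling gave 103 higher and 7033 lower probes around a median change of -1.57, the authors' scores 2083 and 4137 around -0.18, and rank scores 2129 and 3742 around -0.15. Scaling to the median of the probes detected on all 12 arrays, chosen after seeing the data, gave 5682 and 1185 around 0.99, and without a detection filter 4054 were higher and 4146 lower. The authors' scores and the rank scores are in SD units of an array rather than log2. With array brightness in the limma fit, 0 probes were called and 588 had an unadjusted p below 0.05; brightness did not overlap between the diets, so its part in the result cannot be told apart from that of salt.

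The genes that fell furthest included some of contraction, of fatty acid use and of glucose uptake. Among named probes detected on all 12 arrays, the largest fall was that of Myl3, the ventricular essential myosin light chain. Its deposited intensity was 161, 293 and 486 on 8% NaCl (lowest, median and highest array) and 9333, 11575 and 14066 on 0.1% NaCl. The groups lay far apart, and after normalization Myl3 fell by 2.85 ± 0.24 on the log2 scale (-2.85, SE, n = 6 each, limma adjusted p = 1.47e-09). Cpt2, the inner-membrane carnitine palmitoyltransferase that passes long-chain fatty acids to oxidation, read 146, 177 and 307 against 3033, 4012 and 4437. Its normalized change was -2.18 ± 0.16 (SE, limma adjusted p = 4.51e-10), with no overlap. Slc2a4, the insulin-regulated glucose transporter GLUT4, read 129, 152 and 226 against 1734, 1940 and 2353 and changed by -2.00 ± 0.25 (SE, limma adjusted p = 1.71e-07).

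Clusterin (Clu), a secreted chaperone, changed by -2.18 ± 0.19, and Perm1, a muscle regulator of mitochondrial genes, by -2.02 ± 0.16 (SE). Sirt5, a mitochondrial deacylase, changed by -2.13 ± 0.25 and Rps3a, a protein of the small ribosomal subunit, by -2.08 ± 0.24 (SE). The other 5 of the 12 largest falls were Sv2b (-2.46), Rab28 (-2.28), Snurf (-2.23), the p53 target cyclin G1 (Ccng1, -2.01) and the proteasome subunit Psma7 (-1.96). All 12 were far above background on 0.1% NaCl and kept between 1.78% and 3.62% of that signal on 8% NaCl. Both traits largely follow from the choice of large falls among probes still detected on all 12 arrays. Their normalized groups did not overlap, as for 27.5% of all tested probes, but they were chosen for large falls in these same values. All 12 also fell in rats given control IgG, where 2879 of 8354 tested probes were called lower. With brightness in the fit their sizes shrank and none of the 12 was called: Myl3 then stood at -0.82 (adjusted p = 0.769) and Cpt2 at -1.22 (adjusted p = 0.498).

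The largest rises were those of probes that were dim on both diets. Or52d3, an olfactory receptor gene, led with 221.4, 246.9 and 251.9 in intensity on 8% NaCl and 238.6, 263.6 and 278.5 on 0.1% NaCl. Its raw groups overlapped, and its normalized log2 level was 9.71 ± 0.55 against 6.38 ± 0.18 (SD, n = 6 each). The change was thus 3.34 ± 0.26 (SE, limma adjusted p = 6.34e-10), without overlap. Bmp3, a secreted member of the bone morphogenetic protein family, read 214.3 to 239.7 against 235.3 to 278.3, with means of 229.1 and 257.6, and changed by 3.22 ± 0.25 (SE, limma adjusted p = 5.46e-10). The raw signal of both hardly moved while that of other probes dropped. Next came Tnfrsf18 (3.03), a receptor of the tumour necrosis factor family, the ubiquitin ligase Trim2 (3.0), a further olfactory receptor Or52z14 (2.96), Flrt2 (2.88), the serine protease prostasin (Prss8, 2.85) and Camk2n2 (2.84), an inhibitor of calcium/calmodulin kinase II. Bgn (2.93), Nqo1 (2.81), Adamtsl4 (2.78) and Bex3 (2.76) complete the 12, and all 12 kept between 80.4% and 146% of their low-salt signal. The last 4 belong to a block of probe numbers described below. Under median scaling Bgn, Prss8, Nqo1 and Bex3 were no longer called, at 0.36, 0.29, 0.16 and 0.14.

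**Figure D2:**
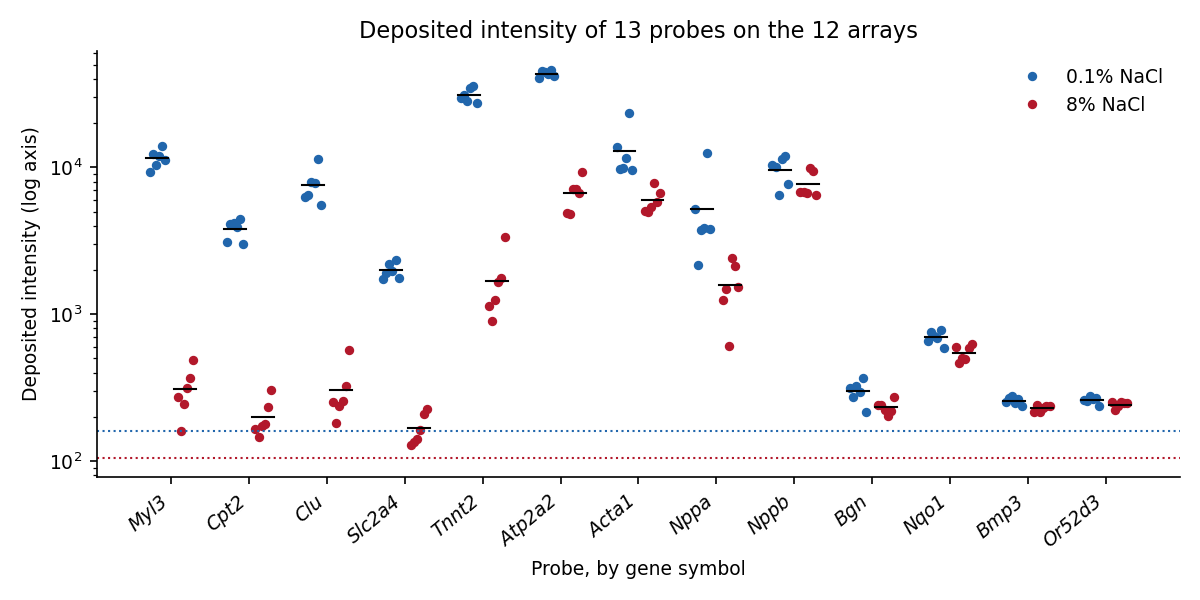
Deposited intensity (log axis) of 13 probes on each of the 12 arrays, with black bars for group means and dotted lines for the mean background intensity of each diet. Myl3, Cpt2, Clu, Slc2a4 and Tnnt2 dropped far on 8% NaCl, whereas Nppb, Bgn, Nqo1, Bmp3 and Or52d3 had nearly the same raw intensity on both diets.

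A measure that needs no scaling between arrays is the share of the low-salt signal above background that was still present on 8% NaCl, chosen after seeing the data. Over the 2712 probes detected on all 12 arrays its median was 14.6%, with 5% of probes under 5.02% and 5% above 66.6%. The range ran from 1.78% (Myl3) to 153%, and 18 probes lay above 100%. A probe that was dim on 0.1% NaCl enters this set only if it kept much of its signal, which holds for the 12 largest rises too. Of these 2712 probes, 1204 were called higher, 735 lower and 773 neither way. Read against that median, Myh7 at 16.7% and Atp2a2 at 15.1% were near the middle, Tnnt2 at 5.06% and Tnni3 at 4.87% near the lower end, and Acta1 at 45.7% well above it.

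Probes whose Illumina numbers begin with ILMN_2038, ILMN_2039 or ILMN_2040 stood apart from the rest, which was noticed after seeing the data. Of 157 such probes tested, 144 were higher (91.7%) and 3 lower, with a median change of 1.93, against 25.9% higher and a median of -0.33 among the other 8197 probes. Those 3 were probes for thioredoxin (Txn1, -2.49), Rps9 (-1.83) and beta actin (Actb, -0.48), named after their values were seen. The 105 block probes detected on all 12 arrays kept a median of 56.4% of their low-salt signal, against 14.1% for other probes. Rats given control IgG showed the same, with 146 higher, 3 lower and a median of 1.39, but the kidney did not: there 1 of 209 block probes was higher, 7 were lower and the median was -0.05.

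For 23 genes a block probe and another probe were both tested, and the block probe had the higher change in 21 of them, by a median of 1.84 on the log2 scale over the 23. In 11 genes the block probe was called higher and the other lower. Psmb10, an immunoproteasome subunit, changed by 2.37 with its block probe and by -2.82 with its other probe. Fech, the last enzyme of heme synthesis, changed by 2.56 and -0.90, and Aprt, a purine salvage enzyme, by 1.92 and -0.88. Among 54 genes with several probes outside the block, 8 had opposite calls. What sets the block apart was not tested. In 6 genes, Axl, Gtf2ird1, Lpcat3, Rbm25l1, Tie1 and Zbed4, both probes were called higher, with the smaller change in the other probe: Axl, a receptor tyrosine kinase, changed by 2.37 and 1.55 and Tie1, an endothelial receptor, by 2.06 and 0.69. For Nppb, Bgn and Nqo1 no probe outside the block was tested. Without the block, 2126 probes were higher and 3704 lower.

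**Figure D3:**
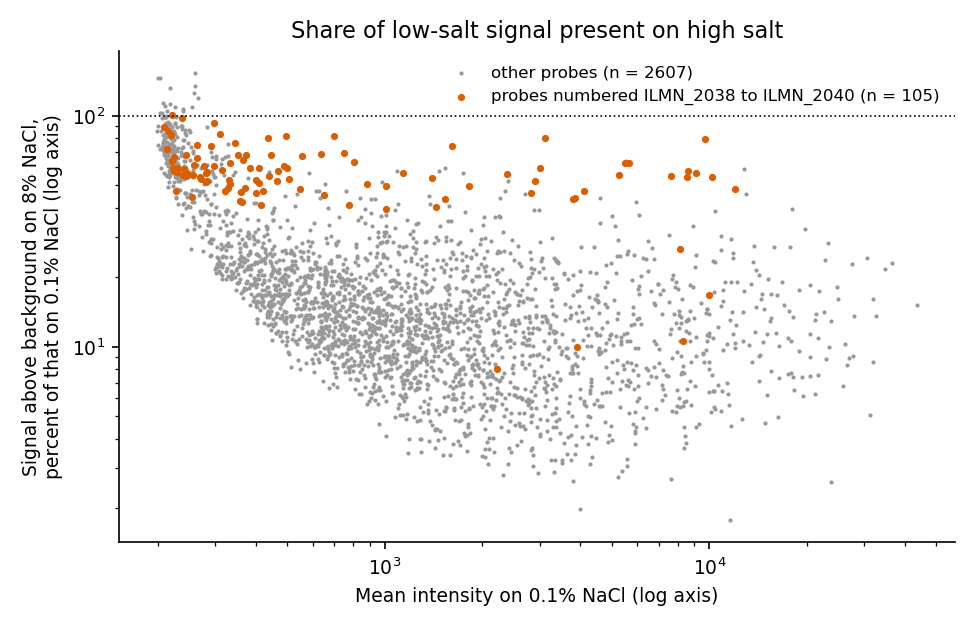
Share of the low-salt signal above background present on 8% NaCl (percent, log axis) against mean intensity on 0.1% NaCl (log axis) for the 2712 probes detected on all 12 arrays. Orange points are the 105 probes of the number block, with a median of 56.4%, and grey points the other probes, with a median of 14.1%. The dotted line marks 100%, above which 18 probes lie.

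Genes of oxidative phosphorylation fell together. Of 11 tested genes of oxidative phosphorylation, the respiratory chain and ATP synthase, 10 fell and 0 rose, against 44.4% and 27.2% of all tested probes, with a median change of -1.0 against -0.31 for all tested probes. Cox5a, a subunit of cytochrome oxidase, read 275, 468 and 1015 on 8% NaCl and 7332, 9481 and 11067 on 0.1% NaCl and changed by -1.52 ± 0.18 (SE, limma adjusted p = 9.01e-08). Sdhb of complex II changed by -1.47 ± 0.14 and Atp5f1a of ATP synthase by -1.24 ± 0.16 (SE), both without overlap. Uqcrc1 of complex III was not called, at -0.17 ± 0.11 (SE, limma adjusted p = 0.152), but was called lower under median scaling (-2.57) and higher with the authors' scores (1.12). Relative to all tested probes the list's median was below 0 under neqc (-0.69), median scaling (-1.96), rank scores (-0.27) and no background correction (-0.78), but above it with the authors' scores (0.29). All of these scalings keep the order of probes within an array. Scaling to the probes detected on all 12 arrays gives the same relative median as median scaling. They are thus not separate tests, here or for the lists below.

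Of 12 tested genes of fatty acid uptake and oxidation, 8 fell and 2 rose, against 44.4% and 27.2% of all tested probes, with a median of -0.91. Acadm, the medium-chain dehydrogenase, changed by -1.27 ± 0.14 (SE, limma adjusted p = 2.29e-08) and Cpt2 was among the largest falls. Pdk4, the kinase that shuts off pyruvate oxidation, changed by -1.01 ± 0.34 (SE, limma adjusted p = 0.01). Cpt1b, the outer-membrane transferase of muscle, moved the other way at 0.71 ± 0.16 and the fatty acid binding protein Fabp3 at 0.44 ± 0.14 (SE), but under median scaling both were lower, at -1.95 and -1.46. The list's relative median was below 0 under all scalings tried. The same was true of the 8 tested ribosomal protein genes, 7 of which fell and 0 rose, against the same shares (median -0.89); Rpl13 changed by -2.09 ± 0.25 and Rps6 by -1.08 ± 0.14 (SE).

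Cardiomyocyte markers shared in the fall. Of 7 tested, 5 fell and 0 rose, against 44.4% and 27.2% of all tested probes, with a median of -1.09 and a relative median below 0 under all scalings tried. Cardiac troponin T (Tnnt2) read 898, 1446 and 3378 on 8% NaCl and 27514, 30356 and 35853 on 0.1% NaCl and changed by -1.69 ± 0.13 (SE, limma adjusted p = 6.85e-10). Troponin I (Tnni3) changed by -1.42 ± 0.13, the regulatory light chain Myl2 by -1.09 ± 0.18 and the adult alpha myosin heavy chain Myh6 by -1.05 ± 0.18 (SE). With the authors' scores Myh6 was higher, at 0.41, and Tnnt2 was not called. The summed normalized level of the cardiomyocyte list was 26596 to 32401 on 8% and 50438 to 61398 on 0.1% NaCl. Its part in the fall of the energy and calcium genes was not tested.

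Markers of the fetal and stressed ventricle lay on both sides, as did all tested probes (27.2% higher, 44.4% lower). Of 7 tested hypertrophy genes, 3 rose (Nppb, Nppa and Acta1), 3 fell (Myh6, Rcan1 and Ankrd1) and Myh7 was not called; the median was 0.07. Skeletal alpha actin (Acta1) read 4978, 5617 and 7860 on 8% NaCl and 9617, 10697 and 23382 on 0.1% NaCl. It stayed among the brightest probes while others dropped, and changed by 1.3 ± 0.21 (SE, limma adjusted p = 7.91e-06). Atrial natriuretic peptide (Nppa) read 607, 1515 and 2410 against 2167, 3848 and 12637 and changed by 1.22 ± 0.34 (SE, limma adjusted p = 0.00242); its normalized groups overlapped. Brain natriuretic peptide (Nppb), read from a block probe, was 6485, 6757 and 9971 against 6467, 10190 and 12031. Its raw groups overlapped, and it changed by 1.99 ± 0.22 (SE, limma adjusted p = 3.22e-08).

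Under median scaling Nppa and Acta1 were lower, at -1.24 and -0.62, and Nppb was not called, at 0.13. The list's relative median was 0.37 under neqc, -0.61 under median scaling and 2.47 with the authors' scores. Nppa is also an atrial gene, and Myl7, the atrial light chain, varied widely from array to array, from 110 to 987 in intensity on 8% and from 195 to 2075 on 0.1% NaCl. The summed normalized level of the 2 atrial markers with a probe was 3558 to 12394 on 8% and 1199 to 7167 on 0.1% NaCl. The part of atrial tissue in the Nppa result was not tested. Rcan1, a calcineurin target, changed by -1.26 ± 0.21 (SE, limma adjusted p = 1.17e-05). Ankrd1, a stretch-responsive ankyrin repeat protein, changed by -0.35 ± 0.13 (SE, limma adjusted p = 0.0221) but was higher with the authors' scores (2.68). It was not called without salt-loaded replicate 2 (-0.30) or low-salt replicate 5 (-0.30). The beta myosin heavy chain Myh7, which rises in pressure overload, changed by 0.07 ± 0.16 (SE, limma adjusted p = 0.728). Myh7 was called lower under median scaling (-2.18) and higher with the authors' scores (2.13).

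Genes of TGF beta signalling were called in both directions. Of 9 tested, 2 rose and 3 fell, against 27.2% and 44.4% of all tested probes, and the median was -0.33, close to that of all tested probes. That median is the value of Tgfbi, which was detected on 0 salt-loaded arrays, as were Tgfbr3 and the 3 genes that fell. Tgfbi and Tgfbr3 were not called, and the salt-loaded arrays allow no fold for them. The median thus rests on values at background. The ligand Tgfb1 read 118.1, 134.3 and 140.9 on 8% NaCl and 191.0, 232.6 and 269.0 on 0.1% NaCl and changed by 1.01 ± 0.22 (SE, limma adjusted p = 0.000279), with normalized groups that did not overlap. Tgfb3 changed by 0.91 ± 0.19 (SE, limma adjusted p = 0.000133). Both were lower under median scaling, at -0.63 and -0.83. Tgfb2 was not called, at 0.77 ± 0.39 (SE, limma adjusted p = 0.0756). Without salt-loaded replicate 5 it was, at 1.07, and without low-salt replicate 5 too, at 0.97. Under median scaling it was called lower, at -1.62.

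The signal transducer Smad2, the inhibitory Smad7 and the latency binding protein Ltbp1 were each detected on 6 low-salt and 0 salt-loaded arrays. Their fitted changes were -1.17, -1.06 and -1.81 (limma adjusted p = 8.92e-08, 3.48e-05 and 3.61e-07). Only a limit can be given: Ltbp1 was at least 1.21-fold lower on 8% NaCl, and for Smad2 and Smad7 the salt-loaded arrays allow no fold. Scaled to the probes detected on all 12 arrays, all 3 had positive changes (1.23, 1.39 and 0.32). The receptor Tgfbr1 and Smad3 were detected on 0 of 12 arrays.

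Fibrosis and matrix genes were mostly not called. Of 14 tested, 2 rose, 4 fell and 8 passed in neither direction, with a median of -0.21, where 27.2% of all tested probes were higher and 44.4% lower. Among those 8, Col1a1, Fn1 and Postn were detected on 0 salt-loaded arrays, which allow no fold for them. The missing call of these genes therefore does not show that they were unchanged. The 2 that rose were Sparc, a collagen-binding glycoprotein (0.58 ± 0.17, SE, limma adjusted p = 0.00433), and the proteoglycan biglycan (Bgn), read from a block probe. Sparc was lower under median scaling, at -2.07. Col1a2, a chain of type I collagen, read 328, 552 and 1323 on 8% NaCl and 4371, 7049 and 10866 on 0.1% NaCl and changed by -0.73 ± 0.18 (SE, limma adjusted p = 0.000947). Col8a1 changed by -1.55 ± 0.36, the collagen crosslinking enzyme Lox by -1.43 ± 0.30 and the membrane metalloprotease Mmp14 by -1.03 ± 0.26 (SE). Lox was detected on 0 salt-loaded arrays, which limits its fall under neqc to at least 1.02-fold. Scaled to the probes detected on all 12 arrays, Lox and Mmp14 were called higher, at 0.64 and 0.80. Col3a1 was not called, at 0.25 ± 0.23 (SE, limma adjusted p = 0.322). It was called lower under median scaling (-1.84) and with rank scores over the probes detected on all 12 arrays (-0.55), and higher when scaled to those probes (0.71). Fibroblast markers gave 3 lower and 0 higher of 6, with summed normalized levels of 7027 to 11092 on 8% and 10333 to 15933 on 0.1% NaCl; their part in the matrix result was not tested. Of the other cell type markers tested, beta globin (Hbb, 0.21), the macrophage gene Aif1 (-0.22), Vwf of endothelium (-0.58), Cfd of fat (0.15) and Ttr (0.15) were not called. Hbb and Aif1 were called lower under median scaling (-2.08 and -2.72), and with the authors' scores Hbb was higher (1.92) and Aif1 lower (-0.76). Endothelial Tie1 (block probe, 2.06), the fat gene Adipoq (0.97) and the myelin gene Mbp (1.46) were higher and smooth muscle Tagln (-0.99) lower under neqc. Under median scaling Tie1 and Adipoq were at -0.49 and -0.19 and Mbp was not called, and Tagln was at 0.058 when scaled to the probes detected on all 12 arrays. Their part in the results was not tested.

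The catalytic subunits of the sodium pump, which marinobufagenin binds, had no named probe. Of the 5 other sodium pump and sodium exchange genes tested, 1 rose and 1 fell, against 27.2% and 44.4% of all tested probes. The beta subunit Atp1b3 read 389, 566 and 924 on 8% NaCl and 1462, 2070 and 2598 on 0.1% NaCl and changed by 1.12 ± 0.14 (SE, limma adjusted p = 2.11e-07), though it was lower under median scaling (-1.53). Phospholemman (Fxyd1), which restrains the cardiac pump, changed by -1.74 ± 0.31 (SE, limma adjusted p = 3.01e-05). The main beta subunit Atp1b1 changed by 0.00 ± 0.15 (SE, limma adjusted p = 0.996) under neqc and by -2.67, a call, under median scaling. Of 5 calcium handling genes, 1 rose and 2 fell, against the same shares. The calcium pump Atp2a2 (-0.54 ± 0.11) and the release channel Ryr2 (-1.61 ± 0.22) were lower and the channel Cacna1c (1.05 ± 0.12, SE) higher. This Ryr2 probe was detected on 0 salt-loaded arrays, which limits its fall under neqc to at least 1.32-fold. Scaled to the probes detected on all 12 arrays it was at 0.30 and not called. A second Ryr2 probe, detected on 3, changed by -1.74 ± 0.37 (SE) under neqc. Atp2a2 was the brightest probe on every low-salt array, so its normalized level there was fixed at the top of the scale (14.88, SD 0). With the authors' scores Atp2a2 was higher (3.05). The mineralocorticoid receptor Nr3c2 rose by 1.72 ± 0.19 (SE, limma adjusted p = 4.97e-08). It was lower under median scaling, at -0.53. Of the 2 tested genes of the renin-angiotensin and adrenergic list the other, the angiotensin receptor Agtr1a, was not called (0.23 ± 0.23, SE, limma adjusted p = 0.367), but was lower under median scaling (-0.69) and higher when scaled to the probes detected on all 12 arrays (1.87). Among 6 heat shock and stress genes, the chaperones Hsp90aa1 (-1.3) and Hspb1 (-0.88) fell and the transcription factor Ddit3 rose (0.47). Of all tested probes 27.2% were higher and 44.4% lower.

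**Figure D4:**
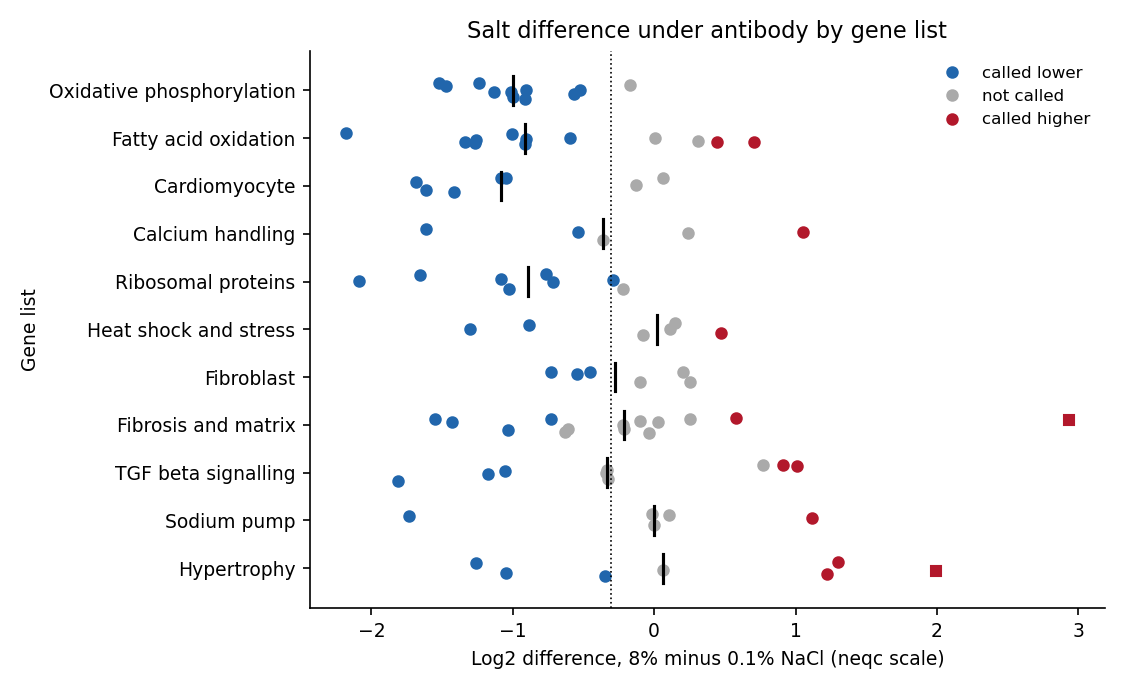
Log2 difference between 8% and 0.1% NaCl (neqc scale) for each tested gene of 11 lists, coloured by call at adjusted p below 0.05. Squares are probes of the number block, black bars the list medians and the dotted line the median of all tested probes, -0.31. Of 11 oxidative phosphorylation genes 10 are called lower, while TGF beta, matrix and hypertrophy genes lie on both sides.

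Ranks within an array need no scaling, and quantile normalization keeps their order. The percentile ranks of 1406 tested probes were higher on all 6 salt-loaded arrays than on any low-salt array (16.8%), and those of 2299 were lower (27.5%). Over all probes on the array the counts were 1769 (7.85%) and 2585 (11.5%). Ranks that do not overlap therefore mean normalized values that do not overlap, and a call on such a probe could go only in that direction. Of the 1406 tested probes with higher ranks 1403 were called higher, and all 2299 with lower ranks were called lower. These counts are no separate support for the calls. Scg5, a chaperone of secretory granules, stood at a mean percentile of 82.3 on 8% NaCl, and Stac3, a muscle calcium channel adaptor, at 86.2. In the other direction stood the probe annotated mrpl24, a mitochondrial ribosomal protein, at a mean percentile of 81 on 0.1% NaCl, and F2r, the thrombin receptor, at 82.7. Neither was detected on any salt-loaded array, so their percentiles there are ranks among background values. Scg5 and Stac3 were detected on 0 low-salt arrays, which limits the rise of Stac3 to at least 4.46-fold on the normalized scale. For Scg5 the same figure was 3.64-fold. Scg5 was detected on only 4 of 6 salt-loaded arrays, so its figure includes values at background and is no strict limit. The low-salt percentiles of both are likewise ranks among background values. F2r was at least 1.27-fold and mrpl24 at least 1.07-fold lower on 8% NaCl; scaled to the probes detected on all 12 arrays, F2r was at -0.058 (not called) and mrpl24 at 0.18.

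Detection was mainly lost. Of 6386 probes detected on all 6 low-salt arrays, 2712 (42.5%) were detected on all 6 salt-loaded arrays and 1280 (20%) on none. These 1280 were 5.68% of all probes. Only a split of 6 against 0 arrays passed Fisher's exact test, with the smallest adjusted p the design gave (0.0379). The test thus adds nothing to this count. Only 6 probes went the other way (0.0266%): Stac3, Ehf, Sipa1l3, a probe for the elongation factor Eef1a1 and 2 without a gene name. These were named after their values were seen. The gains came at falling raw intensity: Ehf, an epithelial ETS factor, had a mean of 137 on 8% and 172 on 0.1% NaCl, and Stac3 140 and 165.

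Rats given control IgG, which share no array with this comparison, showed largely the same effect of salt. Of 4985 probes called there (59.7% of those tested), 4365 were called in the same direction under antibody, 27 in the opposite direction and 593 not at all. The 4365 are 87.6% of the control calls and 73% of the antibody calls. Across the 8354 tested probes the log2 changes correlated at r = 0.886 and rho = 0.882, a description only, since both comparisons share the normalization, the probes and dim salt-loaded arrays. The slope was 1.14, and the change was the larger in size under antibody for 68.7% of tested probes. The salt-loaded antibody arrays were also the dimmer, at 3859 to 5509 detected probes against 4903 to 7033 with control IgG. The part of this gap in the size of the effect was not tested.

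Chosen on the control arrays alone, the largest falls were those of Eno3, the muscle enolase, and Gng11, a G protein gamma subunit, and both recurred. Eno3 read 85.5, 103 and 150 on 8% and 554, 687 and 779 on 0.1% NaCl under antibody, a change of -3.20 ± 0.40 (SE, limma adjusted p = 2.41e-07) against -3.07 with control IgG. Gng11 changed by -2.95 ± 0.27 against -2.90. Each was detected on 1 of 6 salt-loaded antibody arrays, so these sizes rest on values at background. Of the largest control rises, Bgn recurred at 2.93 against 2.75, whereas Scn3b, a beta subunit of the voltage-gated sodium channel, was not called under neqc, at 0.35 ± 0.33 (SE, limma adjusted p = 0.338) against 2.67. It was called higher when scaled to the probes detected on all 12 arrays (1.80) and lower under median scaling (-0.76). Its difference between the antibodies was -2.32 ± 0.46 (SE, limma adjusted p = 0.0148). Of the 27 probes with opposite calls, 24 were higher with control IgG and lower under antibody. The other 3 were Prrc2a, Tfip11 and an unnamed probe, named after their values were seen.

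The difference between the salt effects passed for 150 of 8354 probes (1.80%), 31 of them more positive and 119 more negative under antibody. The furthest below were Fhl1 and Col8a1. Fhl1, a LIM protein of the cardiac sarcomere, read 98.2, 130 and 211 on 8% and 630, 852 and 1448 on 0.1% NaCl. It changed by -2.24 ± 0.46 under antibody and by 0.88 ± 0.46 with control IgG, a difference of -3.12 ± 0.65 (SE, limma adjusted p = 0.0184). Col8a1, a short-chain collagen of vessels and injured tissue, read 110, 122 and 144 against 260, 518 and 1060. It changed by -1.55 ± 0.36 under antibody and by 1.19 ± 0.36 with control IgG, a difference of -2.74 ± 0.51 (SE, limma adjusted p = 0.0109).

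Fhl1 was detected on 3 and Col8a1 on 2 of the 6 salt-loaded arrays, near the limit of measurement. The furthest above were Atp6v0a1, a subunit of the vacuolar proton pump (1.72 ± 0.34, SE, limma adjusted p = 0.0148), and Tdrd1, a tudor domain protein of germ cells (1.67 ± 0.40, SE, limma adjusted p = 0.0332). Atp6v0a1 changed by 1.36 ± 0.24 under antibody and by -0.36 ± 0.24 with control IgG (SE), though under median scaling its change under antibody was -0.997. Tdrd1 was detected on 4 salt-loaded and 1 low-salt array. The count rested on single arrays: it was 755 without salt-loaded antibody replicate 6, the brightest of its group, 422 without salt-loaded control replicate 6 and 47 without low-salt antibody replicate 5. It was 17 with brightness in the fit and 5 under median scaling.

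**Figure D5:**
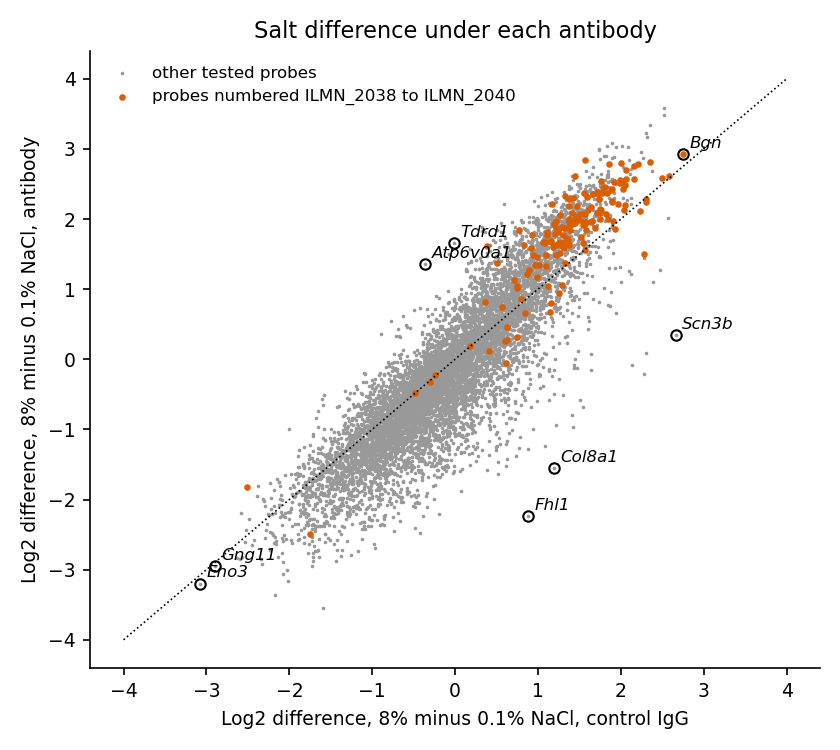
Log2 difference between 8% and 0.1% NaCl under antibody (vertical) against that with control IgG (horizontal) for the 8354 tested probes, with the line of equal change dotted. Orange points are the probes of the number block. Fhl1, Col8a1 and Scn3b lie far below the line, Atp6v0a1 and Tdrd1 above it, and Bgn, Eno3 and Gng11 close to it.

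The kidneys of the same rats showed little of this. Under antibody, 72 kidney probes were higher and 140 lower on 8% NaCl of 11534 tested (1.84%), and kidney arrays detected 10675 ± 275 probes on 8% and 10332 ± 304 on 0.1% NaCl (SD, n = 6 each). The difference of the salt effects, tested within animals, passed for 6401 of 12009 probes (53.3%), 3866 more positive and 2535 more negative in the kidney. At the extremes stood probes that were at or near background in the ventricle on 1 diet, so that the size of their fitted differences is not fixed. Eno3 (4.68 ± 0.66) was detected on 1 salt-loaded ventricular array and Dnajb4, a heat shock co-chaperone (4.62 ± 0.41, SE), on 0. In the other direction, Stac3 (-4.10 ± 0.30) was detected on 0 low-salt ventricular arrays and the organic anion transporter Slc22a8 (-3.98 ± 0.57, SE) on 2. In the ventricle Dnajb4 was at least 3.84-fold lower on 8% NaCl; its mean intensity there was 108 against 763, while in the kidney it was 598 on 8% and 499.5 on 0.1% NaCl. With brightness in the fit, 288 probes passed.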

How the data were processed

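Members, gene lists and tests were chosen with earlier results of these data known. The authors deposited probe intensity on a linear scale, not normalized between arrays, with a detection p-value for each probe and array, and a second table of scores that matched the z-score of log10 intensity within an array to 0.005 in the left ventricle. The submitters' processing notes name GenomeStudio 2011.1, and chip assignments are not given in the sources used here. A platform table, which can be old, gave 1 gene symbol for 13793 of 22523 probes and none for 8730; each result is that of a probe.

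The 24 left ventricular arrays were normalized with neqc (limma 3.58.1, R 4.3.3, offset 16, background from the detection p-values). Probes with detection p below 0.05 on at least 6 of 24 arrays were fitted with lmFit and eBayes on 4 group means and adjusted by Benjamini-Hochberg at 0.05. All p-values measure the spread between rats. Background per array was the median intensity of probes with a detection p of 0.4 to 0.6. A gene's probe with the smallest p was used. Named genes were the 12 largest rises and 12 largest falls among called, named probes detected on all 12 arrays, and list members; the rank, detection, control IgG and kidney extremes came from a rule written for unnamed probes. A fold of a probe undetected on all arrays of a group is a lower limit on the neqc scale only. It is a strict limit only where the other group was detected on all its arrays. For this fold each array of the undetected group was set at its lowest detected value or the probe's own, whichever was higher. The kidney was compared on each rat's kidney minus ventricle difference after neqc over 48 arrays. Replicate numbers are not stated to pair the rats, so the main fit used no block. In simulated data of 8354 probes for the antibody comparison, 200 probes were changed at each size. The fit called 74% of these 2-fold and 13% of these 1.41-fold changes. In the measured data 5977 probes were called, and the median SD was 0.46 on salt-loaded and 0.18 on low-salt arrays. The simulated shares hold for few changed probes only and do not give the power of this comparison. The number of arrays limits the precision. Alternatives covered scaling, background, filter, weights, brightness, the replicate block and each array left out.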

Additional observations from a re-analysis of the deposited data

Results flagged for a closer look

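The difference of the left ventricular salt effects between antibody and control IgG (150 probes) and that between kidney and left ventricle under antibody (6401 probes) were tested directly, and their values stand above.

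Of 176 groups of 6 arrays checked, 17 held an array far from the other 5 by Dixon's criterion, which chance alone flags in about 1 of 20. On the log2 scale, salt-loaded replicate 6, the brightest of its group, lay apart for Eno3 (7.12, the others 4.61 to 5.25), mrpl24 (4.65), F2r (4.77), Slc22a8 (5.50, the others 7.04 to 7.91), Acadm (11.76) and Adipoq (5.07, the others 6.46 to 7.02). Salt-loaded replicate 2, the dimmest, lay apart for Myl3 (9.30, the others 10.03 to 10.30) and Tgfb3 (8.05, the others 6.74 to 7.18). Salt-loaded replicate 5 lay apart for Mmp14 (6.92) and Sdhb (12.18), and replicate 1 for Sv2b (9.55). Among low-salt arrays, replicate 6 lay apart for Eno3 (8.90) and Acadm (12.99), replicate 2 for Psma7 (10.07), replicate 4 for Tdrd1 (5.75), replicate 5 for Hspb1 (11.60) and replicate 3 for Nppb (11.94, the others 12.50 to 12.81).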

How the results depend on the processing

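The count of probes called between the diets was 5977 and ranged from 5765 to 6104 when each array was left out. It was 1900 with rank scores over the probes detected on all 12 arrays, 1432 with detection p below 0.01 required on all 12 arrays (fewer probes tested in both) and 0 with brightness in the fit (588 at an unadjusted p below 0.05). Detected probes differed by -3608.63 to -3278.63, and log2 brightness by -2.65 to -2.43, when each array was left out. Probes that lost detection numbered 1288 to 1805, and the kidney difference 5965 to 6568 probes, when each array or rat was left out. The kidney difference was 288 with brightness in the fit. The 150 probes whose salt effect differed between antibodies became 47 to 755 when each array was left out, changing by over 1.5 times in 18 of 24 cases. They were 5 under median scaling, 63 with rank scores, 35 without the filter, 17 with brightness and 69 with the replicate block. Replicate numbers are not stated to mark a shared source. Same-numbered rats deviated together at r from -0.15 to 0.01, and 0 of 6 salt-loaded arrays correlated best with their own number. Whether the numbers mark a shared chip, litter or day was not tested. With the block, 5904 probes were called between the diets and 6299 in the kidney difference. The recurrence of control calls was 4365 and became 6673 under median scaling and 0 with brightness, where 2 control probes were called.

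Of 86 named probes, all kept their call with the 12 arrays alone, rank scores, no background correction, no filter, a variance trend and the replicate block. Of the same 86, 85 kept it with array weights, 75 with the authors' scores and 56 under median scaling. Scaled to the probes detected on all 12 arrays 68 kept it, and with brightness 9. In every setting together 0 of 86 stayed the same. Leaving out an array changed a call in 4 of 1032 cases. Directions turned as follows; the cause was not tested. Under median scaling Atp6v0a1 was -0.997, Nppa -1.24, Tgfb1 -0.63, Tgfb3 -0.83, Sparc -2.07, Atp1b3 -1.53, Acta1 -0.62, Cacna1c -1.38, Cpt1b -1.95, Fabp3 -1.46, Nr3c2 -0.53, Ddit3 -2.22, Tie1 -0.49 and Adipoq -0.19. With the authors' scores Myh6 was 0.41, Ankrd1 2.68, Atp2a2 3.05, Atp5f1a 0.43 and Ddit3 -0.23. With rank scores over probes detected on all 12 arrays Tgfb3 was -0.52. Scaled to those probes, mrpl24 was 0.18, Ryr2 0.30, Smad2 1.23, Smad7 1.39, Ltbp1 0.32, Lox 0.64, Mmp14 0.80, Ankrd1 0.27, Atp2a2 0.24, Tagln 0.058 and Hsp90aa1 0.037. With brightness, where 0 were called, Tnfrsf18 was -0.29, Flrt2 -0.075, Nqo1 -0.12, Sirt5 0.023, Eno3 0.67, Scg5 -1.24, mrpl24 0.45, Ehf -0.15, Slc22a8 -0.44, Myh6 0.22, Col1a2 0.10, Ltbp1 0.50, Lox 0.20, Sparc -0.24, Fxyd1 0.37, Ankrd1 0.35, Adipoq -1.25, Hspb1 0.048, Mbp -0.77 and Hsp90aa1 0.15.

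Signal over background limits the salt-loaded side: of 8354 tested probes, 5642 were not detected on all 12 arrays.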
